A study of Mus musculus with 9 samples.

Results

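The genes described here are 8 ligands of the tumour necrosis factor (TNF) superfamily that T cells can make: Tnf, Lta, Ltb, Fasl, Tnfsf8, Tnfsf10, Tnfsf11 and Tnfsf14. They were chosen by gene symbol, with earlier results of these data known, and all 8 were found among the 24060 genes of the expression table. The cells were resting CD8 T cells of 3 mouse lines, Rop7-I, Rop7-II and Rop7-III, with 3 biological replicates each and 9 samples in all. Each line was made by transfer of the nucleus of a mature CD8 T cell, so that its T-cell receptor (TCR) is the rearranged receptor of that donor cell. The 3 receptors differ in sequence, and all bind the peptide of the Toxoplasma protein Rop7 on the class I molecule H-2Ld. The transnuclear lines were backcrossed to BALB/c, and the study's figure legend calls the mice of this experiment homozygous. The ages of the mice are not given. No group received antigen. Spleen cells of every line were held overnight with mouse IL-2 at 10 ng per ml, and cells with CD3, CD8 and tetramer staining were sorted to a purity of 90 to 95%. From 200 ng of RNA, polyA libraries without strand information were made with TruSeq. The labels call the samples biological replicates, but no source says that they came from separate animals, so the p-values below measure the spread between these samples. Each line stands for 1 receptor and descends from 1 donor nucleus, so that the receptor and anything else inherited from that nucleus cannot be told apart.

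Ligands of this superfamily are trimers, mostly held at the cell surface, that act on receptors of a matching family on neighbouring cells. The receptors recruit TRAF adaptors or death-domain proteins, and the signal leads to NF-kB activity, cell survival or cell death. In CD8 T cells, several of the ligands are made at a high level only after antigen is met, while lymphotoxin beta is a product of resting lymphocytes and takes part in the build of lymphoid tissue.

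The sorted cells carried transcripts of CD8 T cells. The 10 CD8 T-cell markers of the list used here summed to between 10617 and 11376 TPM, a unit of transcript abundance that sums to the same total in each sample, in the 9 samples, and the most abundant of them, Cd8b1, stood between 2052 and 2386 TPM. Transcripts of other cells were present as well, and Rop7-II replicate 1 stood apart in them. In that sample all 14 of 14 B-cell markers were at their highest, none of the 14 being at 0 in every sample. Their summed level was 2220 TPM there, against 176 and 242 TPM in the other Rop7-II samples. It was 371, 959 and 715 TPM (Rop7-I) and 137, 289 and 205 TPM (Rop7-III), with Cd74, an invariant chain shared by B cells and other antigen-presenting cells, as the most abundant gene. The 17 measured markers of myeloid and dendritic cells, led by the lysozyme gene Lyz2, summed to 739 TPM in Rop7-II replicate 1, and to 84.2 and 270 TPM in the other samples of that clone. They summed to 65.8, 116 and 157 TPM (Rop7-I) and to 60.1, 45.3 and 94.5 TPM (Rop7-III). The co-receptor gene Cd4 was at 6.75 TPM in Rop7-II replicate 1 and at most 0.94 TPM in any other sample. The 8 erythroid and platelet markers, led by Hba-a1, ranged in sum from 24.1 TPM in Rop7-II replicate 3 to 592 TPM in Rop7-I replicate 2, with Hbb-bs at 0 throughout. The 6 NK-cell markers summed to at most 9.89 TPM. In bulk samples, fewer cells of a type and less RNA per cell cannot be told apart. The ligand differences that passed are therefore given with and without Rop7-II replicate 1, and so are calls described for other genes where they end without it.

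The level of the 8 ligands came almost wholly from Ltb. Its share of their summed TPM was lowest in Rop7-I replicate 1, at 96.6%, and highest in Rop7-II replicate 2, at 98.5%. Averaged over the 9 samples, Ltb stood at 1520 TPM, rank 94 of the 24060 genes. Tnfsf10 and Tnfsf8 followed at 14.0 and 13.9 TPM, then Lta at 7.90 and Tnf at 2.23 TPM. Tnfsf14 (0.34 TPM), Tnfsf11 (0.0911 TPM) and Fasl (0.0811 TPM) were close to 0. TPM is scaled by gene length, so these are levels that can be set beside each other. Without Ltb, the remaining 7 ligands summed to 53.1, 50.2 and 48.3 TPM (Rop7-I), to 38.7, 27.0 and 36.9 TPM (Rop7-II), and to 31.4, 31.7 and 29.3 TPM (Rop7-III). Rop7-I was thus highest in the sum without Ltb and Rop7-II was highest in Ltb, in each case with no overlap with the other clones.

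**Figure D1:**
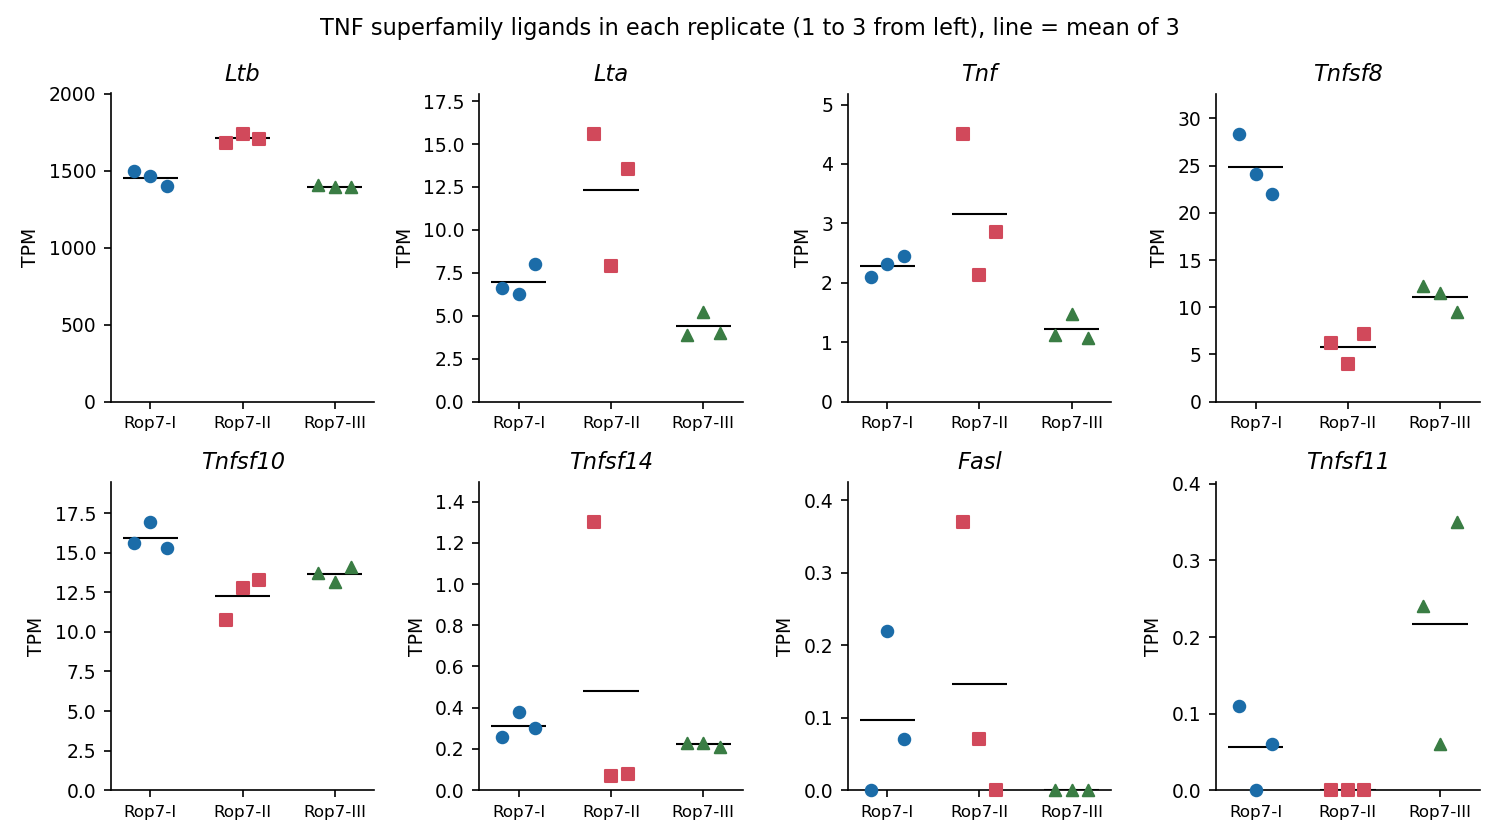
TPM of the 8 ligands in each sample (vertical axes, linear from 0, a scale for each gene) by clone (horizontal axes). Points are the replicates and lines the means of 3; Ltb lies at 1392 TPM or more in every sample, Tnfsf8 separates the 3 clones, and the raised Tnfsf14 point is Rop7-II replicate 1.

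Clones were compared with limma on log2(TPM + 1), and a gene passed when its Benjamini-Hochberg adjusted p over all 12115 tested genes was under 0.01. A p-value that does not pass does not show that a gene was equal in the clones. Because 1 TPM was added, a fold change on this scale understates the change of a gene with a low level. A gene was tested when its highest TPM was over 1, which 6 of the 8 ligands met. Fasl and Tnfsf11 did not, and Tnfsf14 met it only through Rop7-II replicate 1, at 1.30 TPM, so it adds nothing to any count of changed members. Between Rop7-III and Rop7-II, 1 ligand was higher in Rop7-III (Tnfsf8) and 2 were lower (Ltb and Lta), where 6.39% of all tested genes were higher and 5.89% lower. Between Rop7-III and Rop7-I, no ligand was higher and 1 was lower (Tnfsf8), beside 2.58% and 2.28% of all tested genes. Between Rop7-I and Rop7-II, 1 ligand was higher in Rop7-I (Tnfsf8) and 1 was lower (Ltb), beside 3.67% and 3.85%. With at least a 2-fold difference required as well, 1 ligand passed in each pair: Lta between Rop7-III and Rop7-II (1.7% of all genes), Tnfsf8 between Rop7-III and Rop7-I (1.06%) and Tnfsf8 between Rop7-I and Rop7-II (0.949%). The F test across the 3 clones passed for Tnfsf8, Ltb and Lta, and for 14.1% of all tested genes. Without Rop7-II replicate 1 it passed for 2 ligands in place of 3. It also passed for 2 with the replicate number as a block, and for 2 with the level of the myeloid markers as a covariate. Without Tnfsf14, the median log2 fold change of the 5 other tested ligands was -0.29, -0.57 and -0.23 in the 3 pairs in that order, beside -0.02, -0.00 and -0.01 over all tested genes. The median size of the change of these 5 was 0.85, 0.57 and 0.36, beside 0.13, 0.10 and 0.12. The ligands were chosen with earlier results of these data known, and the tested genes were not matched to them in level. These medians are therefore description only. These 3 pairs share samples, so their values are not independent of each other.

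**Figure D2:**
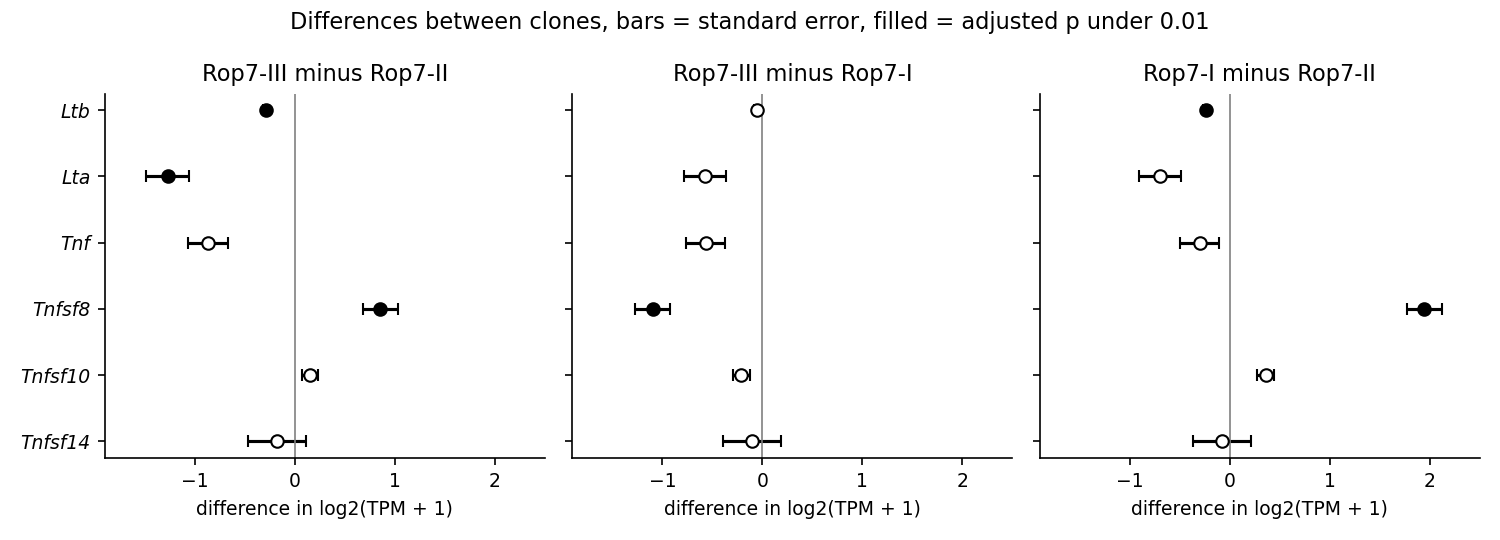
Differences in log2(TPM + 1) between clones (horizontal axes) for the 6 tested ligands, with bars for the standard error from limma. Filled points have an adjusted p under 0.01; Ltb, Lta and Tnfsf8 are filled between Rop7-III and Rop7-II, and Tnfsf8 lies furthest from 0 between Rop7-I and Rop7-II, at 1.95.

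Ltb, Tnf and Lta code for the ligands of the lymphotoxin beta receptor and the TNF receptors, and they lie side by side in the class III region of the major histocompatibility complex. On chromosome 17 of GRCm38.p6 (RefSeq), Ltb spans 35194507 to 35196305 on the plus strand, Tnf spans 35199367 to 35202007 on the minus strand and Lta spans 35203165 to 35205578 on the minus strand. Tnf lies 3061 bases from Ltb and 1157 bases from Lta. All 3 were highest on average in Rop7-II, and the promoters of Ltb and Tnf are shown for that reason. The window of Lta is not shown because it lies mostly within the annotated span of the gene. Each line holds the 250 bases before the annotated start from the RefSeq promoter table, read 5′ to 3′ on the strand of the gene. Ltb is chr17:35194257-35194506 on the plus strand, and Tnf is chr17:35202008-35202257 on the minus strand. Capitals mark matches to the motifs described below, with TTTCC being GGAAA on the other strand.
Ltb: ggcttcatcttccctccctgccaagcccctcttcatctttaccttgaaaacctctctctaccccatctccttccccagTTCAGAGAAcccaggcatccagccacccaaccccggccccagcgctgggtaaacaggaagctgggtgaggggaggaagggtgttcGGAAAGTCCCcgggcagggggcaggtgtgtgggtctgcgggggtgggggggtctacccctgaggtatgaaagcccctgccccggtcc
Tnf: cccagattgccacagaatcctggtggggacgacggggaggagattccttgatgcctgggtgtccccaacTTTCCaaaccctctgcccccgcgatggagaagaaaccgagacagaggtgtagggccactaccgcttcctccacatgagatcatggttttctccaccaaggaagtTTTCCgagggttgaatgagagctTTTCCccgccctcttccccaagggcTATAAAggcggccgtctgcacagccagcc

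Motifs were searched on both strands in the full window of 300 bases, 250 before and 50 after the start, of all 8 ligands and of 16781 genes with a promoter entry. The Ltb window held the NF-kB consensus, which 9.04% of all windows hold and no other ligand's window did. Its match in Ltb overlaps a match to GGAAA, the core bound by NFAT factors, which all 8 ligands had and 60.5% of all windows have. The TATA box letters TATAAA were found in Tnf, Lta and Tnfsf11, and in 12.9% of all windows. The STAT motif TTCNNNGAA was found in Lta and Ltb, and in 8.10% of all windows. Tnfsf14 alone held the AP-1 motif TGANTCA, found in 7.34% of all windows, and Tnfsf10 alone held the interferon response motif TTTCNNTTT, found in 9.85%. A match describes the letters only, and whether any factor binds there was not tested. Because the Lta window lies mostly within the annotated span of the gene, its matches and lack of matches say little about the bases before that span.

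Ltb encodes lymphotoxin beta, the membrane anchor that binds lymphotoxin alpha in a shared trimer. It was at 1497, 1465 and 1397 TPM (Rop7-I), at 1681, 1739 and 1708 TPM (Rop7-II), and at 1404, 1393 and 1392 TPM (Rop7-III). All 3 Rop7-II samples lay above the other 6 samples, and Rop7-I and Rop7-III overlapped. The mean was 1710 ± 29.0 TPM (SD, n = 3) in Rop7-II, which is 1.22 times that of Rop7-III (1396 ± 6.48 TPM, SD, n = 3) and 1.18 times that of Rop7-I (1453 ± 51.4 TPM, SD, n = 3). The log2 fold change of Rop7-III against Rop7-II was -0.29 (limma, standard error 0.03, Benjamini-Hochberg adjusted p = 0.000216), and that of Rop7-I against Rop7-II was -0.23 (adjusted p = 0.00118). Between Rop7-III and Rop7-I the difference of -0.06 did not pass (limma adjusted p = 0.267). Without Rop7-II replicate 1 the values were -0.30 (limma adjusted p = 0.000379) against Rop7-III and -0.25 (limma adjusted p = 0.00177) against Rop7-I. The difference between Rop7-I and Rop7-II had an adjusted p of 0.0112 when only the 6 samples of those clones were fitted by limma. It was -0.23 in that fit as well, and it passed in the other 20 fits. The difference between Rop7-III and Rop7-II passed in all 21.

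Lta encodes lymphotoxin alpha, which is secreted as a trimer of its own or held at the membrane by lymphotoxin beta. Its levels were 6.64, 6.28 and 8.03 TPM (Rop7-I), 15.6, 7.91 and 13.5 TPM (Rop7-II), and 3.90, 5.23 and 4.00 TPM (Rop7-III). Rop7-III was the lowest clone with no overlap, while Rop7-II replicate 2 lay within the range of Rop7-I. The mean of Rop7-II (12.3 ± 3.98 TPM, SD, n = 3) was 2.82 times that of Rop7-III (4.38 ± 0.741 TPM, SD, n = 3), and the log2 fold change of Rop7-III against Rop7-II was -1.27 (limma, standard error 0.21, adjusted p = 0.00272). Against Rop7-I (6.98 ± 0.924 TPM, SD, n = 3), neither Rop7-III (-0.57, limma adjusted p = 0.113) nor Rop7-II passed, Rop7-I minus Rop7-II being -0.70 (limma adjusted p = 0.0505). Without Rop7-II replicate 1, the log2 fold change of Lta between Rop7-III and Rop7-II was -1.09 and the limma adjusted p was 0.00557. Leaving out 1 sample at a time moved that adjusted p past 0.01 in 3 of 9 cases, namely Rop7-II replicate 3 and Rop7-III replicates 1 and 3, with a highest value of 0.0138. In all, the Lta call between Rop7-III and Rop7-II passed in 16 of the 21 alternative fits. It ended with only the 2 clones compared, at the same log2 fold change of -1.27 (limma adjusted p = 0.0154). Without Rop7-II replicate 2, its adjusted p between Rop7-I and Rop7-II was 0.00342 (limma).

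Tnf encodes TNF, the soluble and membrane cytokine of inflammation, and it was transcribed at a low level. It stood at 2.09, 2.32 and 2.46 TPM (Rop7-I), at 4.51, 2.14 and 2.85 TPM (Rop7-II), and at 1.13, 1.48 and 1.07 TPM (Rop7-III). The order of the clones was that of Lta, with Rop7-III below all other samples and the highest value in Rop7-II replicate 1. The means were 2.29 ± 0.187, 3.17 ± 1.22 and 1.23 ± 0.221 TPM (SD, n = 3 each) in Rop7-I, Rop7-II and Rop7-III. The log2 fold change of Rop7-III against Rop7-II was -0.87 (standard error 0.20) and did not pass, with a limma adjusted p of 0.0118. Against Rop7-I, Rop7-III differed by -0.57 (limma adjusted p = 0.0935), and Rop7-I minus Rop7-II was -0.30 (limma adjusted p = 0.333). Over the alternative fits the adjusted p of Tnf between Rop7-III and Rop7-II ranged from 0.00483 to 0.173, and without Rop7-II replicate 1 it was 0.0170 with a log2 fold change of -0.65.

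Both Lta and Tnf were set beside the markers of other cells in each sample. Within Rop7-II, the sample with the highest marker sums was highest in both genes and replicate 2, with the lowest sums, was lowest in both. Across clones the order differed: Rop7-I had B-cell marker sums of 371 TPM or more, above those of Rop7-II replicate 3 (242 TPM), while its highest Lta level was 8.03 TPM against 13.5 TPM in that sample. The myeloid marker sum of that Rop7-II sample, 270 TPM, was above those of all Rop7-I samples, which were at most 157 TPM. With the mean log2 level of the B-cell markers as a covariate, the difference of Lta between Rop7-III and Rop7-II was -1.11 (limma adjusted p = 0.00300) and that of Tnf was -0.68 (limma adjusted p = 0.00597). With the myeloid markers as the covariate instead, an alternative chosen after seeing the data, the values were -0.84 (limma adjusted p = 0.0403) for Lta and -0.46 (limma adjusted p = 0.173) for Tnf. Ltb kept -0.30 and -0.33 in these fits, with limma adjusted p of 0.000278 and 0.00123. Which cells the Ltb, Lta and Tnf transcripts came from was not tested.

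**Figure D3:**
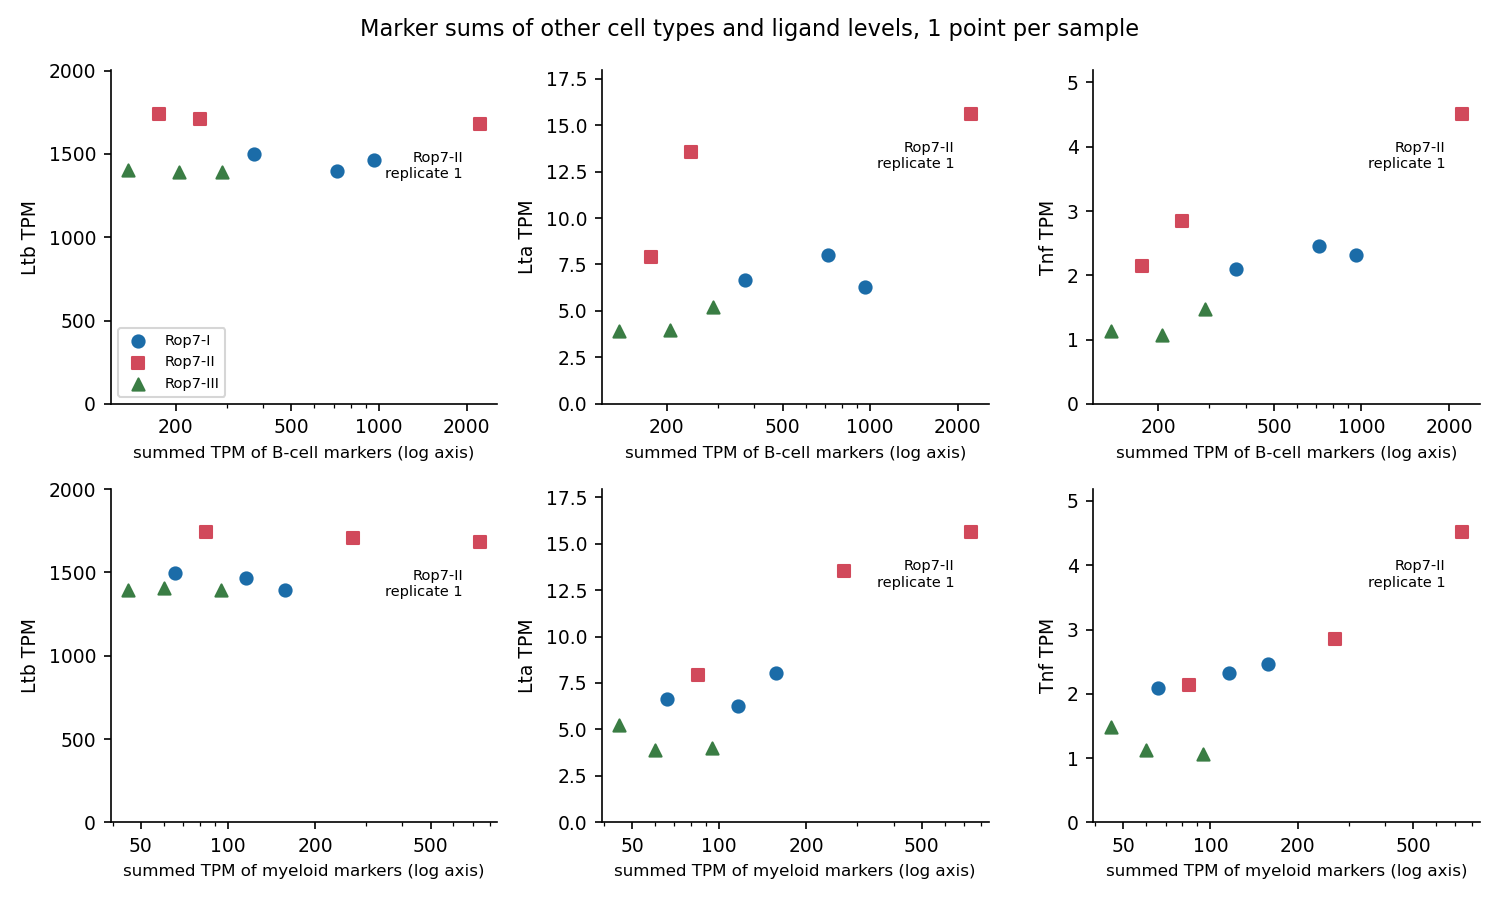
TPM of Ltb, Lta and Tnf (vertical axes, linear from 0) against the summed TPM of 14 B-cell markers (upper row) and of 17 myeloid and dendritic-cell markers (lower row) on log axes, with 1 point per sample. Rop7-II replicate 1 is the rightmost point in each panel and the highest in Lta, at 15.6 TPM, and in Tnf, at 4.51 TPM, while the Ltb levels of Rop7-II stay between 1681 and 1739 TPM.

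Transcripts of Tnf and Lta are known to be short-lived through AU-rich elements in the 3′ untranslated region, where proteins of the Zfp36 family bind. The nonamer ATTTATTTA was counted in the longest annotated 3′ untranslated region of each ligand in GENCODE release 21 for mouse. Tnf held 2 copies in 764 bases and Lta held 1 copy in 572 bases, while Ltb, Fasl, Tnfsf8, Tnfsf10, Tnfsf11 and Tnfsf14 held 0. Of 10800 tested genes with such a region, 6.27% held at least 1 copy. The 30 bases around the matches, shown because they separate Tnf and Lta from their neighbour Ltb, are chr17:35199679-35199708 for Tnf and chr17:35203393-35203422 for Lta on GRCm38, both on the minus strand, with the nonamer in capitals. This motif was chosen after the values were seen.
Tnf: attatttattATTTATTTAttATTTATTTA
Lta: aagttaagttATTTATTTAtagagaataga

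Of 17 measured genes for ligand shedding and mRNA turnover, 16 were tested. Between Rop7-I and Rop7-II, 4 were higher in Rop7-I and 1 was lower, beside 3.67% and 3.85% of all tested genes. Between Rop7-III and Rop7-II 2 were higher and 0 were lower (6.39% and 5.89% of all tested genes), and between Rop7-III and Rop7-I 1 was higher and 1 lower (2.58% and 2.28%). The median log2 fold change of this list was 0.07, 0.01 and -0.05 in these pairs, beside -0.01, -0.02 and -0.00 over all tested genes. Zfp36, which codes for tristetraprolin, was at 280 ± 24.1 TPM (Rop7-I), 201 ± 5.33 TPM (Rop7-II) and 225 ± 15.2 TPM (Rop7-III) (SD, n = 3 each), and its Rop7-I level exceeded that of Rop7-II by 0.47 (limma adjusted p = 0.00141). Its relative Zfp36l2 ran the other way, with 355 ± 1.72 TPM (Rop7-I) against 484 ± 22.8 TPM (Rop7-II) and 477 ± 25.3 TPM (Rop7-III) (SD, n = 3 each). The log2 fold change of Zfp36l2 was -0.45 for Rop7-I against Rop7-II (limma adjusted p = 0.000261) and 0.42 for Rop7-III against Rop7-I (limma adjusted p = 0.000476). Zfp36l1 was highest in Rop7-I, with 0.20 over Rop7-II (limma adjusted p = 0.00768) and -0.25 for Rop7-III against Rop7-I (limma adjusted p = 0.00303). The former passed in 9 of the 21 alternative fits for Zfp36l1. Its limma adjusted p was 0.0147 without Rop7-II replicate 1, 0.0215 with the replicate block and 0.0168 with the myeloid covariate. The differences in these fits were 0.20, 0.20 and 0.21 in that order. The Zfp36l1 call between Rop7-III and Rop7-I passed in 15. It ended with the replicate block, where the difference was -0.25 as well (limma adjusted p = 0.0127). Rc3h1, coding for the mRNA-binding protein roquin, was lowest in Rop7-II, by 0.23 against Rop7-III (limma adjusted p = 0.00334) and 0.29 against Rop7-I (limma adjusted p = 0.00159). The Rc3h1 call against Rop7-III passed in 17 of the 21 fits. It ended with the myeloid covariate, where the difference was 0.21 (limma adjusted p = 0.0474). Furin, coding for a protease that cuts precursor proteins, was also lowest in Rop7-II, at 68.5 ± 3.25 TPM (SD, n = 3), with 0.40 for Rop7-III (limma adjusted p = 0.000271) and 0.29 for Rop7-I (limma adjusted p = 0.00227), the latter passing in 18 of the 21 fits for Furin. Adam17, which codes for the protease that sheds TNF from the cell surface, stood between 53.6 and 56.7 TPM in the means of the clones and passed in no pair.

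Tnfsf8 encodes CD30 ligand, a membrane protein of activated T cells and other leukocytes, and it separated all 3 clones. Its levels were 28.4, 24.1 and 22.0 TPM (Rop7-I), 6.21, 4.03 and 7.16 TPM (Rop7-II), and 12.2, 11.5 and 9.51 TPM (Rop7-III). Every Rop7-I sample lay above every Rop7-III sample, and every Rop7-III sample above every Rop7-II sample. The mean in Rop7-I (24.8 ± 3.25 TPM, SD, n = 3) was 4.28 times that in Rop7-II (5.80 ± 1.60 TPM, SD, n = 3) and 2.24 times that in Rop7-III (11.1 ± 1.41 TPM, SD, n = 3). The log2 fold change was 1.95 for Rop7-I against Rop7-II (limma, standard error 0.17, adjusted p = 0.000141), and this passed in all 21 alternative fits. It was -1.09 for Rop7-III against Rop7-I (limma adjusted p = 0.00433) and 0.85 for Rop7-III against Rop7-II (limma adjusted p = 0.00738). These smaller steps kept their direction in the 21 fits, but their adjusted p was under 0.01 in 10 of them between Rop7-III and Rop7-I and in 8 between Rop7-III and Rop7-II. For Rop7-III against Rop7-II it reached 0.0321 without Rop7-III replicate 1 and was 0.0107 without Rop7-II replicate 1 (log2 fold change 0.91), and between Rop7-III and Rop7-I it reached 0.0226 when 1 sample was left out. Tnfsf8 lies on chromosome 4 from 63831202 to 63861508 on the minus strand. The nearest genes of the table on either side, Tnfsf15 and Tnc, were at means of at most 0.03 TPM in every clone. Tnfsf8 was at its lowest in Rop7-II replicate 2, at 4.03 TPM, and Rop7-II replicate 1 lay between the other samples of its clone. Without replicate 1 the log2 fold change of Tnfsf8 was 2.00 for Rop7-I against Rop7-II (limma adjusted p = 0.000278), and the adjusted p for Rop7-III against Rop7-I was 0.00369.

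The 15 markers of memory-like or activated CD8 T cells were set beside Tnfsf8. Their summed level, led by Il2rb, was 141, 155 and 147 TPM (Rop7-I), 154, 124 and 121 TPM (Rop7-II) and 171, 188 and 172 TPM (Rop7-III). Of these 13 were tested and 3 passed the F test, beside 14.1% of all tested genes: Ccl5, Eomes and Cxcr3. Eomes, coding for a T-box factor, had the order of Tnfsf8 with no overlap, at 12.4, 17.5 and 12.6 TPM (Rop7-I), 1.49, 2.45 and 3.07 TPM (Rop7-II) and 7.62, 7.55 and 5.30 TPM (Rop7-III). Its log2 fold change for Rop7-I against Rop7-II was 2.19 (limma adjusted p = 0.000188). Ccl5 and Cxcr3, both coding for parts of the chemokine system, were instead highest in Rop7-III, with means of 28.8 and 4.72 TPM. Whether these markers and Tnfsf8 differ in the same cells was not tested.

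Tnfsf10 encodes TRAIL, a ligand that can start cell death through receptors with a death domain. It stood at 15.6, 16.9 and 15.3 TPM (Rop7-I), at 10.7, 12.8 and 13.3 TPM (Rop7-II), and at 13.7, 13.2 and 14.1 TPM (Rop7-III). Rop7-I was the highest clone with no overlap, and Rop7-II and Rop7-III overlapped. No pair passed, the lowest adjusted p being 0.0170 for Rop7-I against Rop7-II at a log2 fold change of 0.36 (limma, standard error 0.08). Without Rop7-II replicate 1 this difference was 0.27 (limma adjusted p = 0.0274), and with the B-cell markers as a covariate it was 0.39 and passed (limma adjusted p = 0.00606). With the myeloid markers as the covariate instead, the difference was 0.30 and did not pass (limma adjusted p = 0.0521).

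The remaining ligands were near or at 0 in these cells. Fasl, which codes for the death ligand of cytotoxic T cells, was at 0, 0.22 and 0.07 TPM (Rop7-I), at 0.37, 0.07 and 0 TPM (Rop7-II), and at 0 TPM in all 3 Rop7-III samples. Tnfsf11, coding for RANK ligand, which drives osteoclast formation, was at 0.11, 0 and 0.06 TPM (Rop7-I), at 0 TPM in all 3 Rop7-II samples, and at 0.24, 0.06 and 0.35 TPM (Rop7-III). Tnfsf14, coding for LIGHT, which shares receptors with lymphotoxin, was at 0.26, 0.38 and 0.30 TPM (Rop7-I) and at 0.23, 0.23 and 0.21 TPM (Rop7-III). In Rop7-II it was at 1.30 TPM in replicate 1 and at 0.07 and 0.08 TPM in the other replicates, so that its highest and lowest values both came from that clone. Its log2 fold changes were -0.18, -0.10 and -0.08 in the 3 pairs, with limma adjusted p of at least 0.686. The table gives no read counts per sample, so no upper limit was computed for a listed 0.

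Of 10 other ligands of the superfamily, 3 were tested: Cd40lg, Tnfsf9 and Tnfsf13b. Cd40lg, coding for the CD40 ligand by which mainly CD4 T cells help B cells, was at 3.70, 2.90 and 3.01 TPM (Rop7-III). It was at 0, 0.11 and 0.11 TPM (Rop7-I) and at 0.70, 0.22 and 0.12 TPM (Rop7-II), so that Rop7-III lay above all other samples. It was over 1 TPM only in Rop7-III and met the filter through that clone alone, so it is not counted. The log2 fold change of Rop7-III was 1.66 against Rop7-II (limma adjusted p = 0.000384) and 1.97 against Rop7-I (limma adjusted p = 0.000324). With no filter, the adjusted p for Cd40lg was 0.000337 and 0.000339. The 6 CD4 T-cell markers, of which Cd40lg is 1 and Icos the most abundant, summed to 65.9, 78.3 and 73.2 TPM (Rop7-I), to 83.0, 64.3 and 71.5 TPM (Rop7-II) and to 65.0, 59.6 and 66.3 TPM (Rop7-III). Which cells the Cd40lg transcripts came from was not tested. Tnfsf9, coding for the ligand of 4-1BB, stood between 1.89 and 3.44 TPM and Tnfsf13b, coding for BAFF, between 0.56 and 1.36 TPM, and neither passed in any pair.

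Of 11 measured receptors for the 8 ligands, 8 were tested and 0 passed in any pair with limma, at an adjusted p under 0.01. Of all tested genes, 6.39% were higher and 5.89% lower between Rop7-III and Rop7-II. The shares were 2.58% and 2.28% between Rop7-III and Rop7-I, and 3.67% and 3.85% between Rop7-I and Rop7-II. The F test passed for 0 of the 8 receptors and for 14.1% of all tested genes. At an unadjusted p under 0.05, 6, 1 and 2 of the 8 were reached for Rop7-III against Rop7-II, Rop7-III against Rop7-I and Rop7-I against Rop7-II, beside 37.8%, 28.0% and 32.1% of all tested genes. The median log2 fold change of these receptors was -0.25 between Rop7-III and Rop7-II, where that of all tested genes was -0.02. Ltbr, 1 of the 8, was over 1 TPM in only 2 samples, of Rop7-I and Rop7-II, and met the filter through them alone. Nothing is therefore concluded for the receptors as a set from these counts or this median. Tnfrsf14, coding for HVEM, the receptor of LIGHT, was the most abundant, at 349, 310 and 331 TPM (Rop7-I) and 339, 391 and 400 TPM (Rop7-II). In Rop7-III it was at 204, 218 and 316 TPM, and the difference from Rop7-II was -0.64 (limma adjusted p = 0.0111). Ltbr, coding for the lymphotoxin beta receptor, which is mostly found on stromal and myeloid cells, was at 2.23 TPM in Rop7-II replicate 1 and lower in every other sample. Tnfrsf1a and Tnfrsf1b, coding for the TNF receptors, ranged from 36.1 to 47.7 TPM and from 21.4 to 35.4 TPM over the 9 samples. The death receptor gene Fas ranged from 47.4 to 56.2 TPM. Tnfrsf10b, coding for the mouse TRAIL receptor, had means of 20.4 ± 1.78, 18.2 ± 2.23 and 20.9 ± 0.602 TPM (SD, n = 3 each) in Rop7-I, Rop7-II and Rop7-III, and the decoy receptor genes Tnfrsf22 and Tnfrsf23 had means between 13.3 and 26.6 TPM. The CD30 gene Tnfrsf8 and the RANK and osteoprotegerin genes Tnfrsf11a and Tnfrsf11b had means under 0.5 TPM in every clone and were not tested.

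Of 17 other receptors of the superfamily, 12 were tested, and 1 passed the F test, beside 14.1% of all tested genes. Tnfrsf26 was at 323 ± 10.2 TPM (Rop7-III) and 273 ± 9.77 TPM (Rop7-II) (SD, n = 3 each), which gave a difference of 0.24 (limma adjusted p = 0.00160). This Tnfrsf26 call ended with the myeloid covariate, where the difference was 0.21 (limma adjusted p = 0.0290). Tnfrsf26 did not pass between Rop7-III and Rop7-I (290 ± 6.99 TPM, SD, n = 3), with 0.15 (limma adjusted p = 0.0251). Cd27, a costimulatory receptor of naive T cells, was the most abundant of them, between 473 and 541 TPM, and passed in no pair. Tnfrsf17, Eda2r and Edar were at 0 TPM in all samples.

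Of 38 genes for receptor adaptors, death effectors and the NF-kB pathway, 37 were tested. Of these 4 passed the F test, beside 14.1% of all tested genes. Between Rop7-III and Rop7-II 0 were higher and 1 was lower, beside 6.39% and 5.89% of all tested genes. Between Rop7-III and Rop7-I 0 passed in either direction, beside 2.58% and 2.28%. Between Rop7-I and Rop7-II 1 was higher and 2 were lower, beside 3.67% and 3.85%. At an unadjusted p under 0.05, 40.5%, 27.0% and 35.1% of the 37 were reached in these pairs, beside 37.8%, 28.0% and 32.1% of all tested genes. The median size of the change in this list was 0.07, 0.07 and 0.10 in these pairs, at or below the 0.13, 0.10 and 0.12 of all tested genes. Traf1, an adaptor gene that is itself a target of NF-kB, was at 187, 184 and 158 TPM (Rop7-III) and 227, 229 and 261 TPM (Rop7-II). Its log2 fold change was -0.44 (limma adjusted p = 0.00268). The call of Traf1 ended with the replicate block (0.0105), the myeloid covariate (0.0130) and only the 2 clones compared (0.0153). The Traf1 difference was -0.50 with the myeloid covariate, and -0.44 with the replicate block and with only the 2 clones compared. Casp8, coding for the caspase that death receptors activate, differed between Rop7-I (82.8 ± 3.57 TPM) and Rop7-II (99.4 ± 4.18 TPM, SD, n = 3 each), with -0.26 (limma adjusted p = 0.00538). Its inhibitor gene Cflar went the other way, with 99.7 ± 2.76 TPM (Rop7-I) and 83.6 ± 4.44 TPM (Rop7-II) (SD, n = 3 each), which gave a difference of 0.25 (limma adjusted p = 0.00455). Rela, coding for the NF-kB subunit p65, differed by -0.15 between Rop7-I and Rop7-II (limma adjusted p = 0.00605). The calls of Casp8, Cflar and Rela passed in 12, 12 and 7 of the 21 alternative fits. Without Rop7-II replicate 1 the difference was 0.23 for Cflar (limma adjusted p = 0.0115) and -0.16 for Rela (limma adjusted p = 0.0109). With the replicate block the difference of Rela was -0.15 and did not pass (limma adjusted p = 0.0176).

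Of 12 neighbours of Ltb, Tnf and Lta in the class III region, all 12 were tested and 1 passed the F test, beside 14.1% of all tested genes. Ddx39b, coding for an RNA helicase, was at 399 ± 24.6 TPM (Rop7-III), at 520 ± 31.8 TPM (Rop7-II) and at 507 ± 18.2 TPM (Rop7-I) (SD, n = 3 each). Its log2 fold change was -0.38 for Rop7-III against Rop7-II (limma adjusted p = 0.00133) and -0.35 for Rop7-III against Rop7-I (limma adjusted p = 0.00456). The former ended for Ddx39b with the myeloid covariate, where the difference was -0.32 (limma adjusted p = 0.0251). The latter passed in 11 of the 21 alternative fits. Its limma adjusted p for Ddx39b was 0.0156 with the B-cell covariate, 0.0113 with the myeloid covariate and 0.0144 with the replicate block. The differences in these fits were -0.32, -0.32 and -0.35 in that order. Lst1, the next gene beyond Ltb and a gene of myeloid cells, was at 21.1 TPM in Rop7-II replicate 1, where the myeloid markers were highest, and at most 10.3 TPM elsewhere. Nfkbil1, the next gene beyond Lta, had means of 23.0, 26.4 and 24.4 TPM in the order Rop7-I, Rop7-II and Rop7-III and passed in no pair. The median log2 fold change of the 12 neighbours was -0.17, -0.01 and -0.20 in the pairs Rop7-III against Rop7-II, Rop7-III against Rop7-I and Rop7-I against Rop7-II, beside -0.02, -0.00 and -0.01 over all tested genes. The value was below 0 for 10, 6 and 11 of the 12 in these pairs, as it was for Ltb, Lta and Tnf in all 3. Among all 12115 tested genes it was below 0 for 6545, 6157 and 6330 in these pairs.

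Other cytokines of T cells were compared with the ligands. Of 16 genes 9 were tested. Ccl5, coding for a chemokine of memory CD8 T cells, was at 26.4, 29.6 and 30.4 TPM (Rop7-III), at 6.51, 2.42 and 3.48 TPM (Rop7-II), and at 9.03, 7.28 and 6.92 TPM (Rop7-I). Its log2 fold change of Rop7-III was 2.61 against Rop7-II (limma adjusted p = 8.99e-05) and 1.77 against Rop7-I (limma adjusted p = 0.00174), the latter passing in 19 of the 21 fits for Ccl5. Xcl1, coding for lymphotactin, was at 1.84, 1.21 and 3.31 TPM (Rop7-III), and at 0 TPM in all other samples but Rop7-I replicate 2 (0.30 TPM). It too met the filter through Rop7-III alone, so it is not counted. With no filter, the limma adjusted p for Xcl1 was 0.00219 against Rop7-II and 0.00656 against Rop7-I, and the latter call ended in 9 of the 20 alternative fits. The call against Rop7-II ended with the myeloid covariate, where the log2 fold change was 1.77 (limma adjusted p = 0.0112). The log2 fold change of Tgfb1 for Rop7-I against Rop7-II was -0.26 (limma adjusted p = 0.00567), which passed in 12 of the 21 alternative fits. With the replicate block it was -0.26 as well and did not pass (limma adjusted p = 0.0176). Ifng and Il2 had means of at most 0.123 and 0.04 TPM in any clone, in these cells without antigen.

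The 3 genes with the most similar profile were named for each ligand that passed the F test. Likeness was the root mean square difference over the 9 samples of log2(TPM + 1), each gene centred on its mean, among 11328 tested genes with a mean of at least 1 TPM. For Tnfsf8, whose own values spread by 0.82 on this measure, they were Smo (0.20), Arrdc4 (0.27) and Wfikkn2 (0.28). Smo, coding for the signal transducer of the hedgehog pathway, was at 4.70, 5.65 and 4.98 TPM (Rop7-I), at 0.52, 0.24 and 0.59 TPM (Rop7-II), and at 1.43, 1.30 and 1.48 TPM (Rop7-III), which is the order of Tnfsf8 with no overlap. For Lta, with a spread of 0.58, they were H2-T10 (0.19), Emid1 (0.21) and Tesc (0.22). H2-T10, a class I-like gene of a family whose members share sequence and hence reads, was at 46.6, 29.2 and 51.7 TPM (Rop7-II), with replicate 2 low as in Lta. It lies 910 kb from Lta on chromosome 17. For Ltb, with a spread of 0.13, they were Babam1 (0.03), Mrps35 (0.03) and Tcof1 (0.03), all highest on average in Rop7-II.

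**Figure D4:**
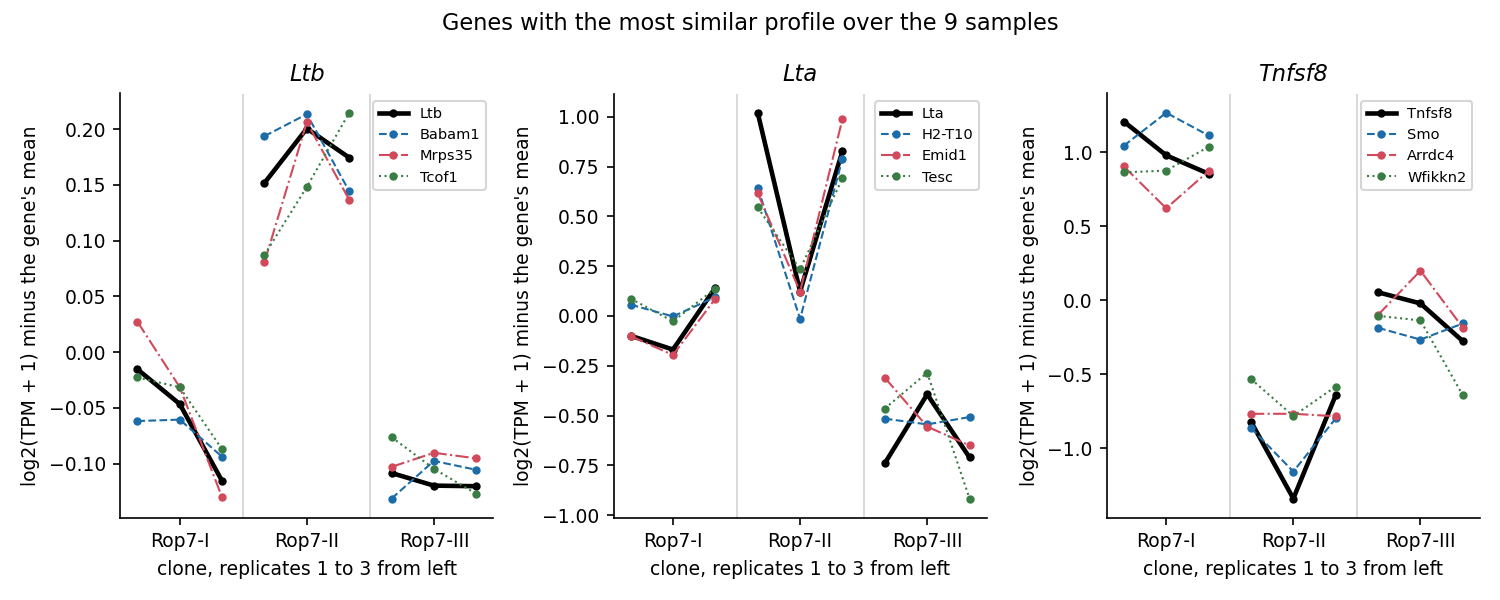
Values of log2(TPM + 1) less the mean of each gene (vertical axes) in the 9 samples by clone (horizontal axes) for Ltb, Lta and Tnfsf8 (thick black lines) and the 3 genes most similar to each. Ltb and its similar genes are raised in the 3 Rop7-II samples, Lta and its similar genes dip in Rop7-II replicate 2, and Tnfsf8 and its similar genes are highest in Rop7-I; lines join replicates for reading only, since replicates have no order.

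The ligands thus showed no common order of the clones. Between Rop7-III and Rop7-I the log2 fold change was below 0 for the 5 tested ligands other than Tnfsf14 and for 6157 of all 12115 tested genes. Of these 5 ligands only Tnfsf8 passed. Tnfsf14 is not counted, since it met the filter through Rop7-II replicate 1 alone, and it changed direction in some alternative fits. On average Rop7-II was highest in Ltb, Lta and Tnf and Rop7-I in Tnfsf8 and Tnfsf10, while Cd40lg, outside the 8, was highest in Rop7-III. The calls that passed in all 21 alternative fits were those of Ltb between Rop7-III and Rop7-II and of Tnfsf8 between Rop7-I and Rop7-II.

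**Figure D5:**
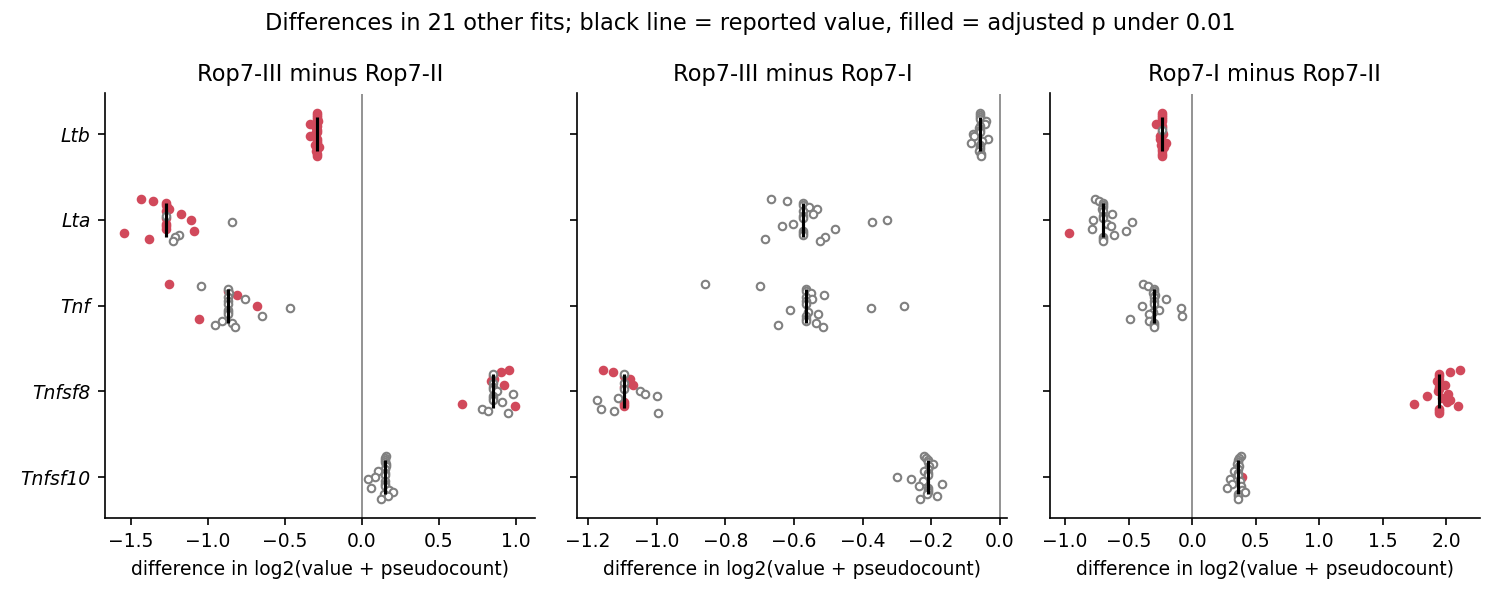
Differences between clones (horizontal axes, log2 scale) for 5 ligands in the reported fit (black line) and in 21 other fits (points, spread vertically for reading), filled where the adjusted p was under 0.01. No point crosses 0; the points of Tnfsf8 between Rop7-I and Rop7-II lie between 1.74 and 2.11, all filled.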

How the data were processed

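RNA of the 9 samples was sequenced, and the authors deposited a table of TPM values for 24060 genes, made with RSEM 1.2.11 on the mm10 genome. These versions are from the submitters' processing notes. The table holds no read counts, and for depth the study gives only a typical number of reads per sample, so no counting error was computed for low values. No replicates of a clone were identical. The members and lists were chosen with earlier results of these data known.

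Values were transformed to log2(TPM + 1), and genes with a highest TPM over 1 were kept (12115 genes). The 3 clones were fitted together in limma 3.58.1 (R 4.3.3) with a mean-variance trend, for 3 pairs and a moderated F test across clones. P-values were adjusted by Benjamini-Hochberg within each pair, with a threshold of 0.01, and counts with at least a 2-fold difference were taken as well. The code was tested on simulated data. Tables and figures were made in Python 3.11.15 with pandas 2.3.3.

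Named genes are all 8 members, their receptors, up to 5 genes per list with the smallest F adjusted p, chromosomal neighbours, and the 3 most alike genes of each member with an F adjusted p under 0.01, among genes with a mean of at least 1 TPM. Other named genes, the AU-rich nonamer and the myeloid covariate were chosen after seeing values. Alternatives were other added constants, filters, scalings, no trend, sample weights, a replicate block, marker covariates, only the 2 clones compared, each sample left out, and other thresholds.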

Additional observations from a re-analysis of the deposited data

How the results depend on the processing

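Each clone is 1 line with 3 samples, the read count of each sample is not in the table, and cells other than CD8 T cells contributed transcripts. The B-cell and myeloid marker sums were highest in Rop7-II replicate 1, and the erythroid and platelet sum in Rop7-I replicate 2. Differences of named genes were followed through the alternative fits, those of genes other than the members only where they had passed. Of the 69 followed, 57 had passed in the reported fit. Refits of the same samples could hardly reverse such differences, so a kept direction is no independent support. In all fits 66 of the 69 kept their direction. The exceptions were those of Tnfsf14. Its difference between Rop7-III and Rop7-II was 0.11 with the B-cell marker covariate and 0.41 with the myeloid marker covariate. Between Rop7-III and Rop7-I it was 0.0252 with quantile normalization, 0.33 with the B-cell and 0.18 with the myeloid marker covariate. For Rop7-I against Rop7-II the value was 0.23 with 0.1 TPM added, 0.0838 with sample weights and 0.24 with the myeloid marker covariate. The cause was not tested.

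Between Rop7-III and Rop7-II, 1488 genes passed, against 839 with only the 2 clones compared, 617 with the myeloid marker covariate, 3041 at an adjusted p under 0.05 and 206 with at least a 2-fold difference as well. Of the members 3 passed, against 1 with only the 2 clones compared, 1 with the myeloid marker covariate and 1 with the 2-fold rule. Between Rop7-III and Rop7-I, 588 genes passed, against 1062 with sample weights, 1586 at an adjusted p under 0.05 and 128 with the 2-fold rule. The 1 member that passed became 0 with no filter, no trend, the B-cell marker covariate or the myeloid marker covariate. Between Rop7-I and Rop7-II, 912 genes passed, against 600 with no trend, 356 with only the 2 clones compared, 2163 at an adjusted p under 0.05 and 115 with the 2-fold rule. Of the members 2 passed, against 1 with only the 2 clones compared and 1 with the 2-fold rule. Among the 3 clones, 1707 genes passed the F test, against 1056 with the myeloid marker covariate and 3639 at an adjusted p under 0.05, where 5 members passed in place of 3. Thresholds and the 2-fold rule change counts by construction, and for the others the cause was not tested.

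Leaving out 1 sample at a time gave 834 to 1315 genes and 1 to 4 members between Rop7-III and Rop7-II, 258 to 830 genes and 0 to 1 members between Rop7-III and Rop7-I, and 416 to 875 genes and 2 to 3 members between Rop7-I and Rop7-II. The F test gave 1007 to 1717 genes and 2 to 4 members.

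Samples of different clones were compared by their departures from the mean of their clone. Those of the same replicate number correlated from -0.388 to 0.106, with 1 of 9 over 0.1. Those of different number correlated from -0.177 to 0.324, with 6 of 18 over 0.1. Departures from a shared mean depend on each other, so these values cannot show whether samples of the same number were handled together. That was not tested. With the replicate block, 373 genes and 0 members passed between Rop7-III and Rop7-I. Tnfsf8 had limma adjusted p of 0.0131 between Rop7-III and Rop7-II and 0.0102 between Rop7-III and Rop7-I with the replicate block. The differences were 0.85 and -1.09, as without the block.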
